A study of Rattus norvegicus with 20 samples.

Results

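Swimming was compared with shallow water walking in the soleus of contused rats, as 4 swimming libraries against 4 walking libraries, 8 of the 20 RNA sequencing libraries of the series. Members were taken from the sample labels alone. All 8 came from Sprague-Dawley rats with a 25 g-cm contusion of the spinal cord at T2 and are labelled 13.5 weeks after injury, so injury and labelled time are shared and the form of exercise is what the labels give as different. Exercise started at 2.5 weeks and lasted 10 weeks, with sessions on 5 days of each, and all rats were moved to small cages after 4 days. The other 12 libraries (4 each from unexercised contused rats at 11.5 weeks, uninjured rats labelled 11.5 weeks, and rats with a complete T2 transection at 8.5 weeks) share the estimate of the spread and serve as reference levels. The age and sex of the rats, and how many animals gave each library, are not given in the sources used here.

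The soleus is a slow-twitch calf muscle that normally works against body weight. Loss of load or of nerve activity makes it waste and moves its fibres toward a faster, more glycolytic type, while renewed load or activity can oppose this. In swimming the water carries the body and the hind limb makes rhythmic movements with no ground contact, whereas in shallow water the limb steps on the floor and carries part of the body weight. The deposited table carries Ensembl gene identifiers with no gene names, and the gene table used here pairs 0 of the 24613 identifiers with a symbol. Genes are therefore described by identifier, abundance, direction and size, the function of a named identifier is not stated, and muscle markers could not be checked against the tissue label.

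Libraries held 21165832 to 30649862 counts after swimming and 21445449 to 36604027 after walking. Of the identifiers, 13398 passed the filter on low counts and were tested together. 3 libraries stood apart within their groups. Swimming library 2 lay at -72.8 on the first principal component of the 8 libraries, which held 36.3% of the variance, while the others lay between -9.69 and 31.7. Walking library 4 held the most counts and had 44 genes over 4-fold above the median of the other 7 exercise libraries, against 7 to 13 in the other walking libraries. Walking library 1 had a mean rank correlation of 0.978 with the other walking libraries and of 0.978 with the swimming libraries, where the other 3 walking libraries had 0.983 to 0.985 and 0.968 to 0.973. Correlation over all genes does not set walking library 1 apart from the swimming group, in which libraries 1, 3 and 4 correlated better with walking libraries (0.974 to 0.985) than with their own group (0.967 to 0.977). It stood apart on the genes that differ between the groups.

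A single gene passed edgeR's test, and it was lower after swimming. ENSRNOG00000023227, an abundant transcript ranked 50 of the 13398 tested genes by its mean over the 8 libraries, stood at 648, 1148, 1296 and 1269 CPM (counts scaled to library size) in swimming libraries 1 to 4. In walking libraries 1 to 4 it stood at 2053, 3771, 3902 and 4341 CPM. The groups did not overlap: the highest swimming library, library 3, lay below the lowest walking library, library 1, by a factor of 1.58. The means were 1090 ± 301 CPM after swimming and 3517 ± 1006 CPM after walking (SD, n = 4 each). The log2 difference was -1.69 (SE 0.24, edgeR quasi-likelihood adjusted p = 0.00804), or 3.23-fold lower. It was the 1 called gene of 13398, or 0.00746% of those tested, and without adjustment 2052 genes (15.3%) had a p under 0.05. Fitted to the 8 libraries alone, the log2 difference was -1.70 and did not pass (edgeR adjusted p = 0.341). Without walking library 4 it was -1.57 and did not pass (edgeR adjusted p = 0.0542), and without walking library 1 it was -1.86 (edgeR adjusted p = 0.000469). Over all alternatives the adjusted p of this gene ran from 5.74e-09 to 0.341, and it passed in 16 of 18.

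The reference groups place the walking level of ENSRNOG00000023227 among those of rats that did not exercise. It stood at 3800 ± 614 CPM in unexercised contused rats, 3437 ± 885 CPM in uninjured rats and 4332 ± 176 CPM after transection (SD, n = 4 each). Its lowest value in these 12 libraries was 2678 CPM, above all 4 swimming libraries and above walking library 1. Against unexercised contusion the log2 difference was -1.80 with swimming (SE 0.24, edgeR adjusted p = 0.00321) and -0.11 with walking (SE 0.23), which did not pass (edgeR adjusted p = 1.000). In all, 600 genes (4.48%; 2.22% higher and 2.25% lower) passed for swimming and 0 for walking, where 426 genes (3.18%) had an unadjusted p under 0.05. These contrasts share the contusion libraries, and labelled time differs in them by 2 weeks.

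3 further identifiers are named, so that there are 2 in each direction: those with the smallest p in their direction among genes whose exercise groups did not overlap and whose mean was at least 1 CPM. None of the 3 passed in the edgeR fit of all libraries, and all 3 passed with DESeq2 and with voom. ENSRNOG00000052080 stood at 222, 204, 184 and 200.2 CPM in swimming libraries 1 to 4 and at 252, 379, 313 and 398 CPM in walking libraries 1 to 4. Walking library 1 was the nearest of its group to the swimming libraries, at 1.14 times the highest of them. The log2 difference was -0.73 (SE 0.14, edgeR adjusted p = 0.160), from a mean of 203 ± 15.2 CPM after swimming and 335 ± 66.6 CPM after walking (SD, n = 4 each). Unexercised contused rats were at 334 ± 9.10 CPM, uninjured rats at 389 ± 29.4 CPM and transected rats at 256 ± 38.0 CPM. The swimming mean was thus the lowest of the 5 group means, though transection library 1, at 207 CPM, lay within the swimming range.

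ENSRNOG00000051948 stood at 32.4, 35.2, 33.6 and 32.8 CPM in swimming libraries 1 to 4 and at 27.1, 23.3, 18.9 and 20.6 CPM in walking libraries 1 to 4. All 4 swimming libraries were higher, and walking library 1 was again the nearest of its group. The log2 difference was 0.58 (SE 0.13, edgeR adjusted p = 0.160). The means were 33.5 ± 1.22 CPM after swimming, 22.5 ± 3.56 CPM after walking, 19.8 ± 1.82 CPM in unexercised contusion and 8.69 ± 0.754 CPM after transection (SD, n = 4 each). Uninjured rats were at 18.4 ± 2.85 CPM (SD, n = 4). Swimming thus had the highest and transection the lowest of the 5 group means for this gene.

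ENSRNOG00000021330 is a low-abundance transcript. It stood at 7.11, 6.05, 5.80 and 7.71 CPM in swimming libraries 1 to 4 and at 3.88, 3.72, 3.91 and 4.87 CPM in walking libraries 1 to 4. Here walking library 4, not library 1, was the nearest to the swimming libraries. The log2 difference was 0.70 (SE 0.15, edgeR adjusted p = 0.160), with 4.33 ± 0.308 CPM in unexercised contusion (SD, n = 4). Without walking library 1, the adjusted p of edgeR was 0.0104 for ENSRNOG00000052080, 0.0192 for ENSRNOG00000051948 and 0.0401 for ENSRNOG00000021330, at log2 differences of -0.82, 0.69 and 0.69. The 3 passed with DESeq2 (adjusted p = 0.00161, 0.00875 and 0.00855, in the same order) and with voom (0.0181, 0.0197 and 0.0181). The largest adjusted p over the alternatives was 0.490 for each of them.

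**Figure D1:**
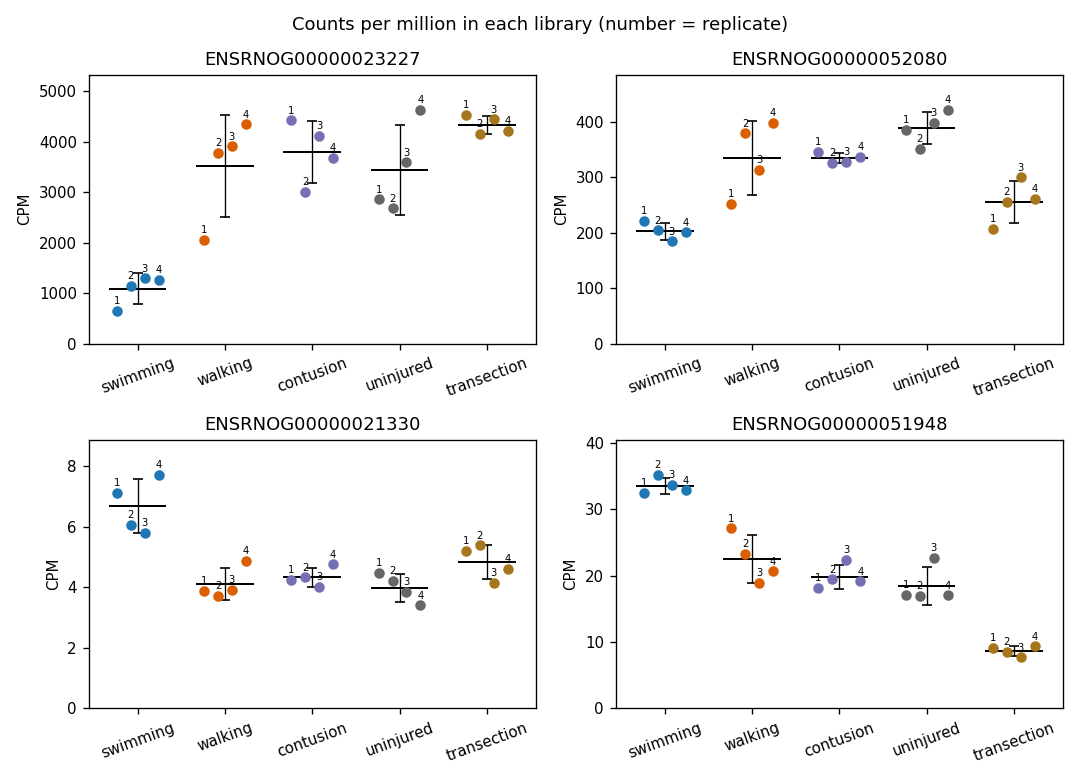
CPM (vertical axis, from 0) of 4 identifiers in each library of the 5 groups (horizontal axis); points are libraries marked with their replicate number, lines are group means and bars are 1 SD (n = 4). Swimming libraries lie apart from walking libraries in all 4 panels, which the choice of identifiers required. Walking library 1, at 2053 CPM, is the walking point nearest to swimming for ENSRNOG00000023227.

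Across all tested genes the differences were mostly small. An unadjusted p under 0.05 was found for 1072 genes higher (8.00%) and 980 genes lower (7.31%) after swimming. Without walking library 1 these numbers were 1657 and 1218, and without walking library 4 they were 625 and 592. Among the genes found with all libraries, the higher ones had a median log2 difference of 0.59 and the lower ones one of -0.40, and 154 and 44 of them exceeded 2-fold. These sizes are of genes chosen by their p. Whatever their p, 265 of the 13398 genes were estimated at over 2-fold higher and 90 at over 2-fold lower. The 95% interval of the log2 difference lay wholly within 2-fold either way for 9724 genes (72.6%) and within 1.5-fold for 5179 genes (38.7%). For the other genes these libraries do not fix the difference that closely. The median SE of a log2 difference was 0.20. Scaled by library totals alone, the unadjusted p under 0.05 was found for 1314 higher and 300 lower genes, and the median log2 difference of all genes was 0.12 in place of 0.01, so the balance of higher and lower genes depends on the scaling.

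How many genes passed depended on the test and on 1 library. DESeq2 called 78 genes higher (0.583% of those it tested) and 62 lower (0.464%) after swimming, 140 in all or 1.05%. Voom with sample weights called 207 higher (1.55%) and 108 lower (0.806%), 315 in all or 2.35%. These lists shared 100 genes, which is 71.4% of the DESeq2 list and 31.7% of the voom list, all 100 in the same direction. Both lists held ENSRNOG00000023227. The medians of the called genes were 0.77 and -0.57 with DESeq2 and 0.73 and -0.47 with voom, on the log2 scale. When walking library 1 was left out, edgeR called 298 genes, or 2.19% of 13625, against 0 or 1 when any other exercise library was left out.

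**Figure D2:**
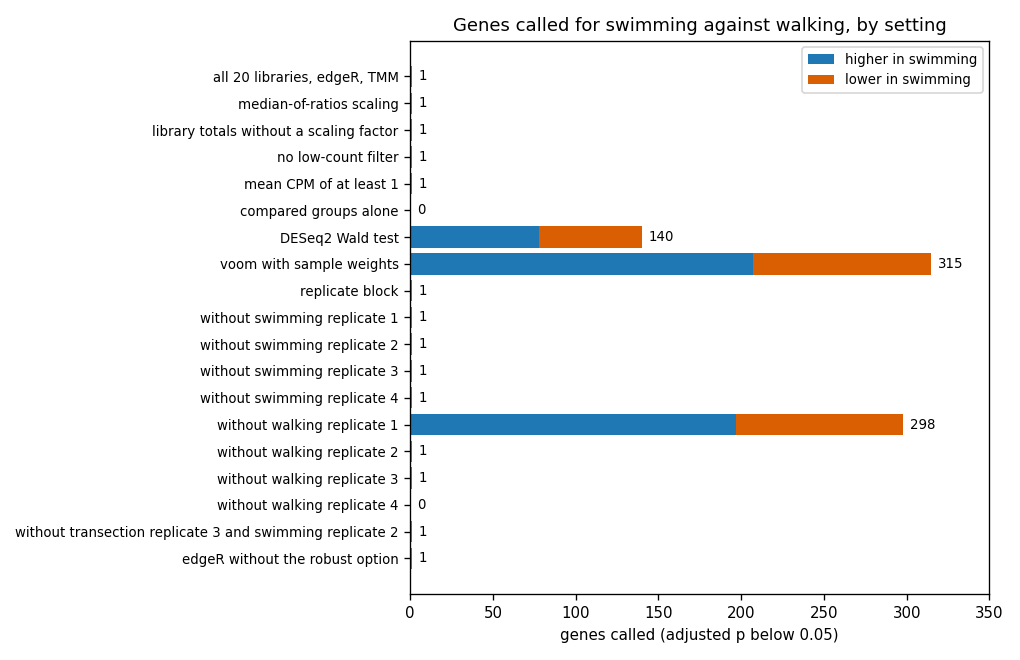
Number of genes called at an adjusted p below 0.05 (horizontal axis) under each setting (vertical axis), divided into genes higher and lower in swimming. The count is 0 or 1 under every setting drawn except DESeq2 (140), voom with sample weights (315) and edgeR without walking library 1 (298).

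Walking library 1 lay closer to the swimming group than to its own on genes chosen without it. For each exercise library in turn, the 200 genes with the smallest p were taken from a fit that left that library out, and its level was then read on a scale where 0 is the mean of its own group's other 3 libraries and 1 is the mean of the other group. The median position of walking library 1 was 0.80, and 175 of the 200 genes (87.5%) were nearer to swimming. Walking libraries 2, 3 and 4 lay at -0.03, 0.15 and -0.10, with 25, 35 and 22 of their 200 genes nearer to swimming. The 0 of their scale includes walking library 1, which can move it toward swimming and lower their positions. Their distance from the 0.80 of walking library 1 is therefore not on one common scale. Swimming libraries 1 to 4 lay at 0.51, 0.27, 0.49 and 0.38, on a scale whose far end includes walking library 1, and 104, 72, 97 and 79 of their 200 genes were nearer to walking. Swimming libraries 1 and 3 thus read about midway between the groups. Genes of smallest p hold the remaining libraries apart by choice, so a left-out library can read near the middle on genes that do not differ. Without swimming library 1, and likewise without library 3, edgeR called 1 gene. A reading near the middle therefore does not show where these libraries lie. On 50 genes swimming library 1 was at 0.54, with 33 of 50 nearer to walking, and swimming library 4 was at 0.24. With 50 or 1000 genes walking library 1 stayed at 0.81 and 0.84. No p is given, since the choices share libraries. The cause was not tested, and the library is kept with the walking group as its label says.

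**Figure D3:**
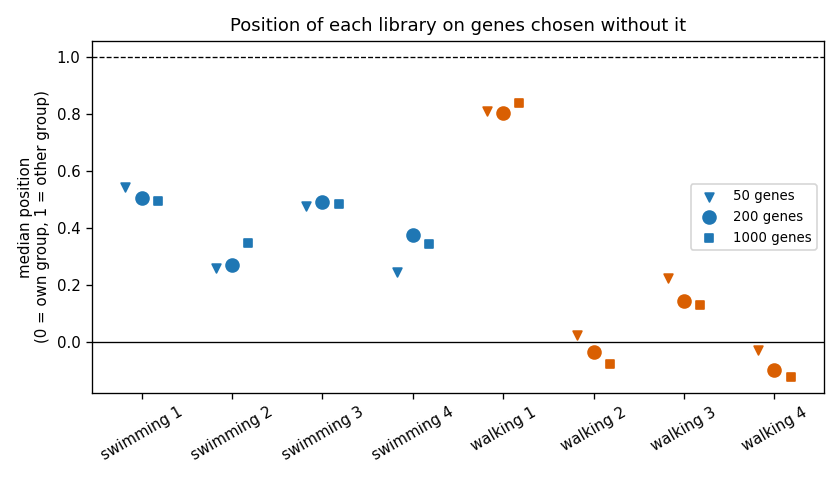
Median position of each exercise library (horizontal axis) between its own group (0) and the other group (1) on the vertical axis, over 50, 200 or 1000 genes chosen in a fit without that library. Walking library 1 sits at 0.80 on 200 genes and the other walking libraries, whose 0 includes walking library 1, between -0.10 and 0.15.

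The same library stood out gene by gene. The exercise groups did not overlap in 881 genes (6.58%), 413 higher (3.08%) and 468 lower (3.49%) after swimming. In 514 of these (58.3%) walking library 1 was the walking library nearest to the swimming group, against 74 to 178 genes for each of the others. Leaving out walking library 1 raised the number of genes with no overlap to 2859 (21.3%). Leaving out walking library 2, 3 or 4 gave 1079 (8.05%), 1202 (8.97%) and 1092 (8.15%). Leaving out a swimming library gave 1283 to 1507 (9.58% to 11.2%). With fewer libraries no overlap is easier to reach, so part of each rise follows from the smaller group.

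The 298 genes called without walking library 1 comprised 197 higher (1.45% of those tested) and 101 lower (0.741%) after swimming. The median log2 differences were 0.85 and -0.60, and 46 of the higher and 8 of the lower genes exceeded 2-fold. Their mean over the 8 libraries was above 100 CPM in 46 genes. On the scale from walking libraries 2 to 4 (0) to the swimming group (1), walking library 1 had a median position of 0.81 over these genes and was nearer to swimming in 263 of 298 (88.3%). Unexercised contused libraries lay between 0.06 and 0.34, uninjured libraries between -0.12 and 0.27 and transection libraries between -0.26 and 0.15. The swimming libraries, which took part in choosing the genes, lay between 0.82 and 1.16. Walking library 1 was thus outside the range of the 12 unexercised libraries and just below the lowest swimming library. With walking library 1 included, 293 of the 298 had an unadjusted p under 0.05, where 15.3% of all tested genes did. That count was largely fixed by the choice, since the other libraries are shared and the threshold is looser. The median size of the log2 differences of the 298 was 0.59 in place of 0.75. The list shared 199 genes with the voom list (66.8% of the 298 and 63.2% of the voom list) and 109 with the DESeq2 list (36.6% and 77.9%).

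Swimming library 2 carried many of the large differences. It lay over 4-fold above the median of the other 7 exercise libraries in 118 genes and over 4-fold below it in 233. In swimming libraries 1, 3 and 4 these numbers were 15 to 63 above and 5 to 23 below, and in walking libraries 7 to 44 above and 21 to 101 below. Of the 265 genes estimated at over 2-fold higher after swimming, library 2 was the highest swimming library in 157 (59.2%), and without it 135 remained over 2-fold. Of the 90 genes at over 2-fold lower, it was the lowest in 53 (58.9%), and 56 remained without it. Leaving out swimming library 1, 3 or 4 kept 255, 220 and 225 of the higher genes. The number of called genes did not rest on this library: without it edgeR called 1 gene, ENSRNOG00000023227, at a log2 difference of -1.72 (adjusted p = 0.0298).

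With all libraries kept, swimming libraries differed more among themselves than walking libraries. The biological coefficient of variation, the relative spread between libraries beyond counting error, was 0.30 in swimming and 0.214 in walking. It was 0.190 in unexercised contusion, 0.203 in uninjured muscle and 0.256 after transection. Without swimming library 2 it was 0.232 in swimming, and without walking library 1 it was 0.179 in walking. The median SD of log2 CPM was 0.293 in swimming and 0.256 in walking. Without swimming library 2 this SD was 0.246 in swimming, below that of the full walking group, and without walking library 1 it was 0.195 in walking. The difference in spread between the groups was not tested.

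**Figure D4:**
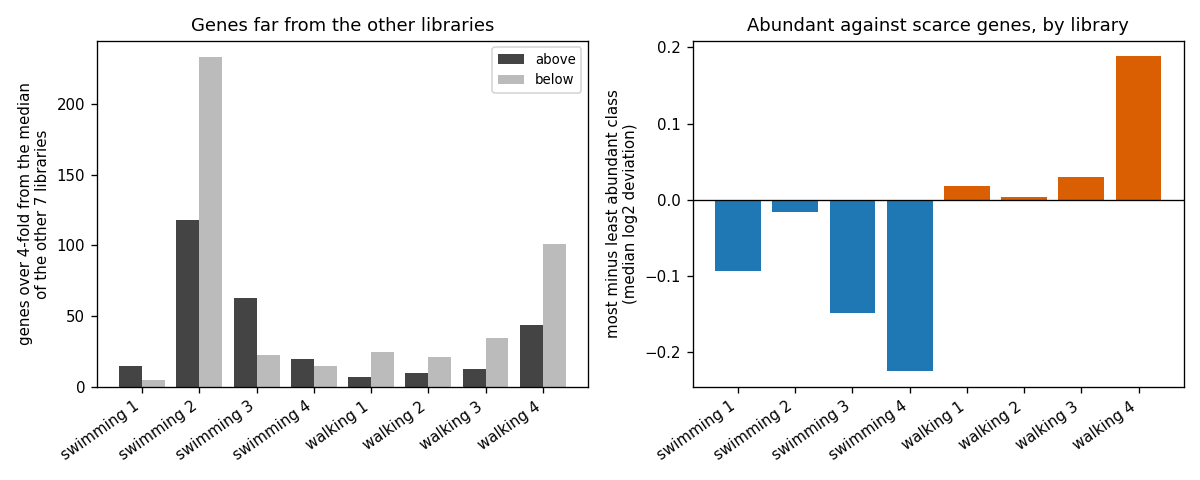
Left, number of genes over 4-fold above or below the median of the other 7 exercise libraries (vertical axis) for each library. Right, median log2 deviation of the most abundant class of genes minus that of the least abundant class (vertical axis); swimming library 2 has 118 and 233 genes far above and below, and all swimming libraries lie below 0 on the right, where all walking libraries lie above it.

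Differences between swimming and walking followed abundance. Ranked by mean level over the 8 libraries, tested genes were put in 10 classes of nearly equal size, with median levels from 0.407 CPM in class 1 to 151 CPM in class 10. The median log2 difference, swimming minus walking, was 0.10 in class 1, 0.16 in class 2, 0.04 in class 5 and -0.12 in class 10. At an unadjusted p under 0.05, 105 of the 1340 genes in class 3 were higher and 34 lower. In class 10, also of 1340 genes, 73 were higher and 199 lower. Over all tested genes 8.00% were higher and 7.31% lower at this p. Class 10 held 98 genes lower and 22 higher with no overlap between the groups, where 3.49% of all tested genes were lower and 3.08% higher. Scaled by library totals alone, the medians were 0.21 in class 1 and -0.01 in class 10, so both shift upward. The gap between them was -0.22 with either scaling, but scaling moves all genes of a library alike and so could hardly change it.

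The gap was visible library by library. As the median deviation of class 10 minus that of class 1 from the mean of the 8 libraries, swimming libraries 1 to 4 had log2 values of -0.09, -0.02, -0.15 and -0.23. Walking libraries 1 to 4 had values of 0.02, 0.00, 0.03 and 0.19. The groups did not overlap, though swimming library 2 and walking library 2 lay close together, and walking library 1 lay with its own group here. Walking library 4, the library with the most counts, had the highest value. Its part in the pattern was measured by leaving it out, after which the gap was -0.19, and leaving out each of the other exercise libraries gave -0.25 to -0.19. With no filter on low counts the gap was -0.10, since genes with almost no counts then fill class 1.

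**Figure D5:**
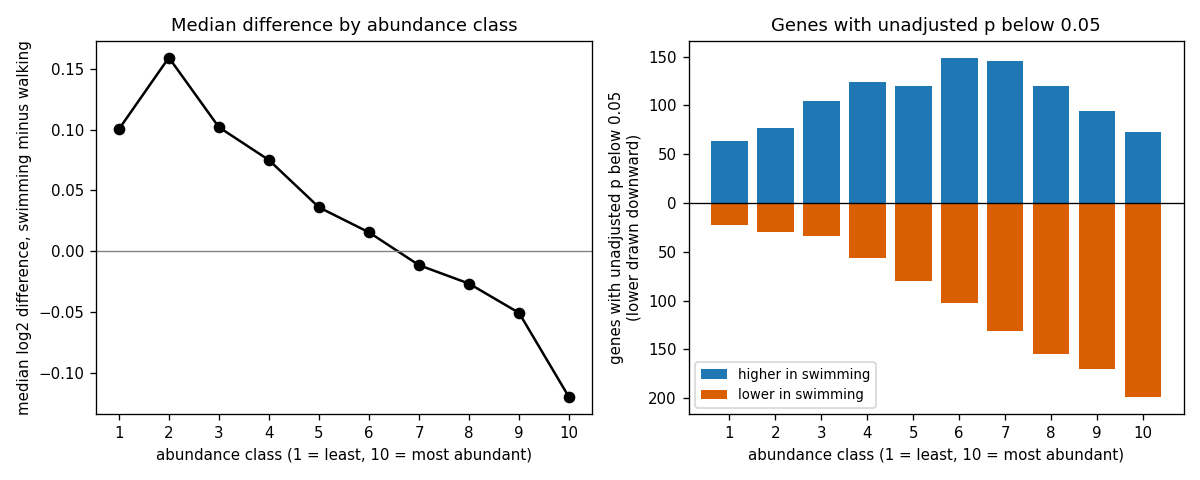
Left, median log2 difference of swimming minus walking (vertical axis) in 10 classes of genes by abundance (horizontal axis). Right, number of genes with an unadjusted p below 0.05 in each class, higher genes drawn upward and lower genes downward; the median runs from 0.10 in class 1 to -0.12 in class 10.

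Unexercised contused rats give a reference for which exercise group lies apart. For the 1072 genes higher after swimming than after walking at an unadjusted p under 0.05, the median log2 difference from contusion was 0.60 with swimming and 0.02 with walking. For the 980 lower genes it was -0.42 with swimming and 0.00 with walking. Over all 13398 genes these medians were 0.01 and 0.01. The genes were chosen on the exercise libraries, the contrasts share libraries, and contused rats were taken 2 weeks earlier, so these medians are a description with no test.

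The concentration of counts and the number of detected genes overlapped between the exercise groups. The share of counts taken by the top 50 genes was 46.0 ± 2.52% after swimming and 47.2 ± 2.01% after walking (SD, n = 4 each), with an exact two-sided permutation p of 0.457. Genes with any count numbered 15764.5 ± 270.0 after swimming and 15485.8 ± 188 after walking (exact two-sided permutation p = 0.143, n = 4 each). After adjustment over both measures these exact p-values were 0.457 and 0.286, and the smallest that 4 against 4 libraries allow is 0.0286. Of 17805 genes with a count in any exercise library, 12 had counts in all 4 swimming libraries and 0 in walking libraries, and 4 had the reverse. None of these exceeded 24 counts over its 4 libraries. Genes counted in fewer than 4 libraries of one group and in none of the other were not examined.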

How the data were processed

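Poly-A RNA was sequenced from stranded libraries, per the labels' protocols. The values the authors deposited are raw counts, whole numbers for each gene. The submitters' processing notes name FastQC 0.10.1, HTSeq and rn6, while the aligner, annotation and strand setting are not given in the sources used here. Counts of overlapping genes or near-identical copies may be mixed. Of 24613 identifiers, 18618 had a count, and 0 rows were without an identifier. Pairs of libraries within the exercise groups differed by far more than counting error (chi-square per degree of freedom of 28.1 to 552), so none was taken for a copy.

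All 20 libraries entered one fit with a mean per group in edgeR 4.0.16 (R 4.3.3), with scaling by the trimmed mean of M values (TMM), filterByExpr at a minimum count of 10, robust estimates of the spread, and the quasi-likelihood F test. Genes were called at a Benjamini-Hochberg adjusted p below 0.05 over all 13398. SE is the size of the log2 difference over the square root of F, and 95% intervals use 15 degrees of freedom. CPM use scaled library sizes, and log2 CPM for positions, classes and components use a prior count of 2.

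The comparison and lists were chosen with earlier results of these data known, as were the position scale and the spread per group. The 42 lists of gene symbols could not be applied, since identifiers carry no names. At most 2 identifiers per direction are named: called genes, then the smallest p among genes with an unadjusted p under 0.01, a mean of at least 1 CPM over the 8 libraries and no overlap. Alternatives were other scalings, other filters, the compared groups alone, DESeq2 1.42.0, voom (limma 3.58.1), a replicate block, each exercise library left out and, added after seeing the data, edgeR without the robust option.

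On counts simulated for this comparison from the real means, library sizes and spread, with 13263 genes tested and 200 changed, edgeR found 22.4% of the genes changed 1.5-fold, 71.6% of those changed 2-fold and 87.9% of those changed 4-fold, beside 3 false calls. DESeq2 found 34.3%, 73.1% and 89.4% of them, with 9 false calls. Voom found 19.4%, 67.2% and 87.9%, with 1 false call. The 3 tools thus found similar shares there, whereas on the real counts edgeR called 1 gene, DESeq2 140 and voom 315. Simulated counts were drawn independently for each gene and library, so no simulated library stood apart as a whole. The simulation therefore cannot say how the tools compare on libraries such as walking library 1. Whether these rates hold for the real libraries was not tested. Figures were drawn with matplotlib 3.10.9.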

Additional observations from a re-analysis of the deposited data

Results flagged for a closer look

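ENSRNOG00000023227 is the 1 gene that edgeR called between swimming and walking (DESeq2 called 140 and voom 315), and its log2 difference of swimming minus walking was -1.69. Library measures and identifier levels gave 36 sets of 4 values, of which 5 had 1 library well apart from the rest. Chance would give about 1.8 for independent sets of normally distributed values. These sets are overlapping measures of the same libraries, so the 5 cannot be read as an excess. Swimming library 2 had 233 genes over 4-fold below the other libraries, the next highest swimming library 23. The other 4 were all walking library 4. It held 36604027 counts, the next highest walking library 23665744. Its deviation of abundant against scarce genes was 0.19 on the log2 scale, the next highest 0.03. It had 44 genes over 4-fold above the other libraries, the next highest 13. ENSRNOG00000021330 stood at 4.87 CPM in it, the next highest 3.91. Walking library 1 was flagged in no set, though its position and rank correlations were among those examined. Swimming library 2 was not flagged on the first principal component.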

How the results depend on the processing

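The number of called genes was 0 with the compared groups alone (1587 genes at an unadjusted p under 0.05), 140 with DESeq2 and 315 with voom. It ran from 0 (without walking library 4) to 298 (without walking library 1) when an exercise library was left out, and was 1 under each of the other alternatives, edgeR without the robust option included. The abundance gap was -0.10 with no low-count filter and -0.27 to -0.19 under the other alternatives. The sign of the position of walking library 2 turned with 50 genes, to 0.026. All 4 named identifiers kept their direction under the 18 alternatives. This lends them no weight, since they were chosen for having no overlap between the exercise groups, and leaving out a library could not turn it. The share of counts in the 50 most abundant genes and the number of genes with a count kept their direction and missed the threshold under every alternative run, with differences of -2.39 to -0.531 percentage points and of 166 to 374 genes. With the replicate number as a block 1 gene was called. The number does not pair the libraries: deviations of same-numbered swimming and walking libraries correlated at -0.10, -0.07, 0.20 and -0.09, and no swimming library correlated best with the walking library of its number. The gene lists could not be run for want of gene names. Differences were least closely fixed in the least abundant class, where the median SE was 0.57 against 0.15 in the most abundant. The part of depth in this was not tested.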
